A study of Mus musculus with 7 samples.

Results

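Periostin, encoded by Postn, and 9 related matrix genes were followed in RNA-seq libraries of mouse sarcoma cells: its paralog Tgfbi, and Fn1, Tnc, Bmp1, Sparc, Spp1, Thbs1, Thbs2 and Thbs3. The genes were chosen by name, with earlier results of these data known. They are 10 of the 35727 genes in the deposited table, and all 10 were among the 13740 genes with enough counts to test. The samples were 3 libraries labelled p53KO Vgll3OE and 4 labelled p53KO Ccne1OE, RFP-positive tumour cells sorted from tumours of 2 mouse models of undifferentiated pleomorphic sarcoma (a cancer of soft tissue with no clear line of differentiation). Both models share the p53 knockout. Mesenchymal stem cells of female C57/Bl6 p53KO mice were given a retroviral vector for Vgll3, a cofactor of TEAD transcription factors, or for Ccne1, cyclin E1. The cells were serially grown under the skin of wild-type females, cultured briefly as tumour cell lines and transplanted again before the sort. There is no library of untransduced cells, so each difference is one between models of 1 line each, and the transduced gene and any other trait of the line cannot be told apart. The labels do not tie libraries to separate tumours or animals, so each p-value rests only on how far these libraries spread, and some of that spread may be technical.

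Matricellular proteins are secreted into the extracellular matrix, where they act on cell adhesion, growth factor activity and matrix assembly more than on structure. Periostin is built of an amino-terminal cysteine-rich domain and repeated fasciclin-1 (FAS1) domains, as is the product of Tgfbi, and it is known to bind fibronectin, tenascin-C and the protease BMP1 and to promote collagen cross-linking. It is made by mesenchymal cells during development, wound repair and in tumour stroma, and signals through integrins containing the αv chain.

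Library totals ran from 26433220 to 47504434 estimated counts in the Vgll3-labelled libraries and from 21725890 to 53610300 in the Ccne1-labelled libraries. Vgll3 itself was 252 ± 34.6 counts per 1000000 (CPM) in the Vgll3-labelled and 50.7 ± 8.57 CPM in the Ccne1-labelled libraries (SD, n = 3 and n = 4, as for every mean below). Ccne1 did not mark the libraries labelled for it, with 14.9 ± 2.16 CPM in the Vgll3-labelled and 12.7 ± 5.61 CPM in the Ccne1-labelled libraries (edgeR adjusted p = 0.609), so the groups are called by their labels. Of 7 mesenchymal markers 3 rose and 3 fell. Vim was 4375 ± 238 CPM in the Vgll3-labelled and 13973 ± 1413 CPM in the Ccne1-labelled libraries, and Col1a1, which led in the Vgll3-labelled libraries, was 13398 ± 1777 CPM there and 4513 ± 736 CPM in the Ccne1-labelled libraries. Pdgfra was 226 ± 46.1 and Pdgfrb 825 ± 275 CPM in the Vgll3-labelled libraries, against 919 ± 60.1 and 188 ± 25.4 CPM in the Ccne1-labelled libraries. Summed over 10 macrophage markers, the level was 7.33, 8.69 and 17.4 CPM in Vgll3 replicates 1 to 3. In the Ccne1-labelled libraries it was 7.81 to 17.2 CPM, and 0 of the 6 tested markers was called, where 51.9% of all tested genes were. Vgll3 replicate 3 stood apart from its group, with a Pearson correlation across genes of 0.956 and 0.960 with the other Vgll3-labelled libraries, which correlated at 0.985 with each other. Changes were called at an adjusted p under 0.05 in edgeR's quasi-likelihood test over all tested genes.

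The DNA upstream of the genes is shown first for the paralogs Postn and Tgfbi, which differed in opposite directions, and for Spp1, whose upstream window holds the most of the matches searched. RefSeq start sites were found for 7 of the 10 genes, with 10 windows of 250 bases before the start, not for Fn1, Bmp1 and Thbs1. Both strands were searched for a TATA box (core TATAAA) and for the motifs known for TEAD (GGAATG), AP-1 (TGANTCA), SMAD (CAGAC) and RUNX factors (TGTGGT), and matches are in capitals. The sequences are RefSeq's, from build GRCm38.p6, plus strand, 5′ to 3′. Those of Postn and Spp1 end just before the RefSeq start, a few bases upstream of the gene's first annotated base. That of Tgfbi ends just before the gene's first annotated base, which lies upstream of the RefSeq start and leaves 187 bases. Their positions are chr3:54360857-54361106 for Postn, chr13:56609336-56609522 for Tgfbi and chr5:104434861-104435110 for Spp1.
Postn: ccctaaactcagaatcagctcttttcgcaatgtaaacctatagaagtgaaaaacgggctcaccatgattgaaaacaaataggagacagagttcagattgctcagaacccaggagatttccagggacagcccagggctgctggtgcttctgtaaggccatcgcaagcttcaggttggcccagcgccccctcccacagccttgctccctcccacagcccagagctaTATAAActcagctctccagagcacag
Tgfbi: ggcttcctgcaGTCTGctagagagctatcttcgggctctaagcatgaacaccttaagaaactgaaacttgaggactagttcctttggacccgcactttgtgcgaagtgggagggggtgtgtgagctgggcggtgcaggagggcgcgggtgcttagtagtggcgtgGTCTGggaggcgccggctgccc
Spp1: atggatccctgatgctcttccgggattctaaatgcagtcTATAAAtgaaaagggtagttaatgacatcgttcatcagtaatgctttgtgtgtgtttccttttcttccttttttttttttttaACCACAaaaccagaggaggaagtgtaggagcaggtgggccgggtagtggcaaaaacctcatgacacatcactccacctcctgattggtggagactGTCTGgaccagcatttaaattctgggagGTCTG

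The Postn window shown, the nearer of 2 to the gene, holds a TATAAA match that begins 26 bases before the RefSeq start and no match to the other 4 motifs. The Tgfbi window has no TATAAA match and 2 matches to the SMAD motif, which begin 239 and 85 bases before its start. The Spp1 window has the only RUNX match of the 10 windows, 128 bases before the start, with 2 SMAD matches and a TATAAA match 211 bases before it. None of the 10 windows holds GGAATG or TGANTCA. Of all 32851 upstream windows of this length, 12.4% hold TATAAA, 12.6% GGAATG, 6.75% TGANTCA, 42.2% CAGAC and 14.0% TGTGGT, so such short matches are common and do not mark a site of binding.

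Postn was the most raised of the 10 genes in the Vgll3-labelled libraries. Its gene (ENSMUSG00000027750, protein-coding) lies on the plus strand at chr3:54361109-54391037 of mm10. Postn was 5320, 6226 and 3339 CPM in Vgll3 replicates 1 to 3, against 120, 277, 291 and 192 CPM in Ccne1 replicates 1 to 4. The lowest Vgll3-labelled library, replicate 3, was above every Ccne1-labelled library, and within the Ccne1-labelled libraries the highest was 2.41 times the lowest. The fold change was 22.5, with a 95% interval of 12.2 to 41.8, and its log2 was 4.49 with an SE of 0.38 (edgeR adjusted p = 0.000102). It ranked 74th of the 13740 tested genes by rise. Without Vgll3 replicate 3 the log2 fold change was 4.72. In sorted bulk cells, fewer cells of a type and less RNA per cell cannot be told apart. Postn had 2648 to 14385 counts in each Ccne1-labelled library, so its lower level there was a measured one, not a level near 0.

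The paralog Tgfbi, named for its induction by TGF-beta and, like periostin, a FAS1 protein that binds integrins and collagens, differed the other way. Its gene (ENSMUSG00000035493, protein-coding) is at chr13:56609523-56639562. Tgfbi was 404, 299 and 478 CPM in Vgll3 replicates 1 to 3, against 1520, 1917, 1813 and 1744 CPM in Ccne1 replicates 1 to 4. The groups did not overlap, and Tgfbi was 4.44-fold lower in the Vgll3-labelled libraries, a log2 fold change of −2.15 with an SE of 0.16 (edgeR adjusted p = 2.11e-05). The pair is compared per length, as TPM, estimated counts divided by the merged exon length of the gene and scaled to sum to 1000000 in each library. The merged length counts all annotated exons, 8702 bases for Postn and 3771 for Tgfbi, and can exceed that of the transcripts made. Where it does, the level per length is too low, and the ratios below depend on these lengths. Per length, the level of Postn was 5.70, 9.02 and 3.03 times that of Tgfbi in Vgll3 replicates 1 to 3. In Ccne1 replicates 1 to 4 Tgfbi was 29.1, 16.0, 14.4 and 20.9 times Postn. Which of the 2 was the more abundant thus differed between the models in every library, while their summed level was 2391, 2728 and 1815 TPM in the Vgll3-labelled and 1403, 1750, 1705 and 1654 TPM in the Ccne1-labelled libraries.

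**Figure D1:**
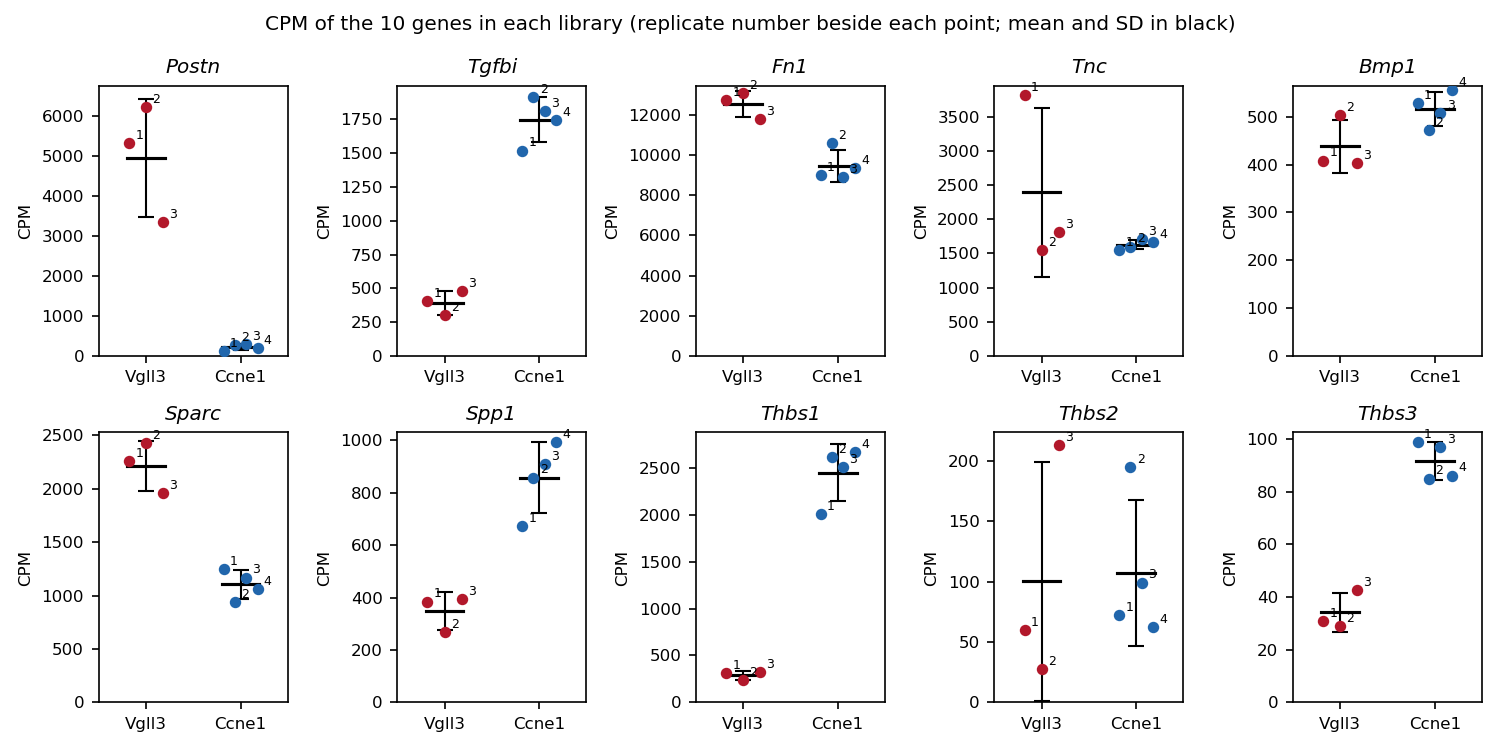
CPM of each of the 10 genes (y axis, linear from 0) in the 3 Vgll3-labelled libraries (red, left) and the 4 Ccne1-labelled libraries (blue, right), with replicate numbers beside the points and mean and SD in black. Postn sits between 3339 and 6226 CPM in Vgll3-labelled libraries and at or below 291 CPM in Ccne1-labelled libraries, while Tgfbi, Spp1, Thbs1 and Thbs3 are lower in every Vgll3-labelled library.

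Among the matrix partners that periostin binds, Fn1 rose modestly and Tnc and Bmp1 were not called. Fn1 encodes fibronectin, a large adhesive glycoprotein of the matrix that integrins assemble into fibrils (ENSMUSG00000026193, chr1:71585520-71653200). It was 12745, 13105 and 11815 CPM in Vgll3 replicates 1 to 3, against 8991, 10598, 8903 and 9358 CPM in Ccne1 replicates 1 to 4. The groups were close but did not overlap, and the Vgll3-labelled libraries had 1.33-fold more Fn1 (95% interval 1.14 to 1.54, log2 of the fold 0.41 ± 0.10 SE, edgeR adjusted p = 0.00657). It was the most abundant of the 10 per length in both models, with ranks of 24 to 27 among all genes in Vgll3-labelled libraries and of 34 to 45 in Ccne1-labelled libraries.

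Tnc encodes tenascin-C, a hexameric glycoprotein of remodelling tissue and tumour stroma (ENSMUSG00000028364, chr4:63959785-64047015). It was 3813, 1553 and 1812 CPM in Vgll3 replicates 1 to 3, against 1544, 1599, 1709 and 1662 CPM in Ccne1 replicates 1 to 4. Vgll3 replicate 1 alone was high, and the other Vgll3-labelled libraries lay in or just above the range of the Ccne1-labelled libraries. The log2 fold change was 0.56 (95% interval −0.13 to 1.24, edgeR adjusted p = 0.150). Without Vgll3 replicate 1 it was 0.041 (edgeR adjusted p = 0.757), and without Vgll3 replicate 2 it was 0.78 and called (edgeR adjusted p = 0.0465). Tested genes of chromosome 4, where Tnc lies, had a median log2 fold change of 0.44, against 0.006 for all tested genes, and the part of the chromosome in the value of Tnc was not tested.

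Bmp1 encodes a secreted metalloprotease that trims procollagens and activates lysyl oxidase (ENSMUSG00000022098, chr14:70474558-70520234). It was 408, 503 and 403 CPM in Vgll3 replicates 1 to 3, against 529, 473, 508 and 556 CPM in Ccne1 replicates 1 to 4. The groups overlapped in Vgll3 replicate 2, and the difference was small, with a log2 fold change of −0.24 (95% interval −0.46 to −0.01, edgeR adjusted p = 0.0757). Without Vgll3 replicate 2 it was −0.35 and called (edgeR adjusted p = 0.0186).

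Sparc and Spp1, both genes of secreted proteins known from bone matrix, differed in opposite directions. Sparc encodes SPARC, or osteonectin, which binds collagen and calcium (ENSMUSG00000018593, chr11:55394500-55423183). It was 2255, 2426 and 1955 CPM in Vgll3 replicates 1 to 3, against 1249, 941, 1169 and 1064 CPM in Ccne1 replicates 1 to 4. Every Vgll3-labelled library was above every Ccne1-labelled library, with a log2 fold change of 1.00 and an SE of 0.12 (edgeR adjusted p = 0.000154). Tested genes of its chromosome, 11, had a median log2 fold change of −0.30, of the other sign.

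Spp1 encodes osteopontin, a phosphoprotein that binds αv integrins and CD44 and is also a product of macrophages (ENSMUSG00000029304, chr5:104435118-104441050). It was 385, 267 and 396 CPM in Vgll3 replicates 1 to 3, against 671, 857, 909 and 991 CPM in Ccne1 replicates 1 to 4. The groups did not overlap, and Spp1 was 2.46-fold lower in the Vgll3-labelled libraries, a log2 fold change of −1.30 with an SE of 0.17 (edgeR adjusted p = 0.000403). The most abundant of the 10 macrophage markers, Cd68, was 3.96 ± 2.49 CPM in the Vgll3-labelled and 5.03 ± 1.55 CPM in the Ccne1-labelled libraries, and the whole list summed to at most 17.4 CPM in any library. Of 5 osteoblast markers 2 could be tested and both fell along with Spp1, where 26.8% of all tested genes fell. Runx2 was 123 ± 14.7 CPM in the Vgll3-labelled and 168 ± 12.1 CPM in the Ccne1-labelled libraries, and Dmp1 was 0.137 ± 0.143 CPM in the Vgll3-labelled and 0.573 ± 0.214 CPM in the Ccne1-labelled libraries (edgeR adjusted p = 0.0367). Dmp1 lies 221 kb upstream of Spp1, and its Vgll3-labelled mean was near the level that 3 counts stand for (0.0577 to 0.136 CPM). Bglap, Sp7 and Alpl were too low to test. The part of these markers in the level of Spp1 was not tested.

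The thrombospondins did not move as 1 family. Thbs1 encodes the trimeric thrombospondin 1, which activates latent TGF-beta and inhibits blood vessel growth through CD36 and CD47 (ENSMUSG00000040152, chr2:118111876-118127133). It was 312, 236 and 326 CPM in Vgll3 replicates 1 to 3, against 2005, 2613, 2508 and 2666 CPM in Ccne1 replicates 1 to 4. The groups were far apart, and Thbs1 was 8.40-fold lower in the Vgll3-labelled libraries, a log2 fold change of −3.07 with an SE of 0.16 (edgeR adjusted p = 3.86e-06). It ranked 165th of all tested genes by fall. Platelets are another source of thrombospondin 1, and the 4 platelet markers Pf4, Ppbp, Itga2b and Gp9 summed to 0.416 to 0.602 CPM in the Vgll3-labelled and 0.908 to 1.33 CPM in the Ccne1-labelled libraries. Only Itga2b could be tested, and it was called lower (log2 fold change −1.21, edgeR adjusted p = 0.0386), as were 26.8% of all tested genes. The part of platelets in the level of Thbs1 was not tested.

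Thbs3, a pentameric member of the family without the TGF-beta activating motif (ENSMUSG00000028047, chr3:89215180-89226837), was 30.9, 29.1 and 42.7 CPM in Vgll3 replicates 1 to 3, against 98.8, 84.9, 96.8 and 86.0 CPM in Ccne1 replicates 1 to 4. It was 2.68-fold lower in the Vgll3-labelled libraries, with no overlap, a log2 fold change of −1.42 and an SE of 0.14 (edgeR adjusted p = 6.31e-05). Thbs3 lies on the same chromosome as Postn, where the median log2 fold change was −0.09.

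Thbs2, the closest relative of Thbs1 and likewise an inhibitor of vessel growth (ENSMUSG00000023885, chr17:14665500-14694235), varied most within the groups. It was 60.1, 27.8 and 213 CPM in Vgll3 replicates 1 to 3, against 72.5, 195, 99.3 and 62.3 CPM in Ccne1 replicates 1 to 4. Vgll3 replicate 3 and Ccne1 replicate 2 were high, the other Vgll3-labelled libraries lay below every Ccne1-labelled library, and the ranges of the groups overlapped. The log2 fold change was −0.10 with a 95% interval of −1.99 to 1.79 (edgeR adjusted p = 0.922). Any level from 0.251 to 3.46 times that of the Ccne1-labelled libraries was thus within the error. It was −1.27 without Vgll3 replicate 3 (edgeR adjusted p = 0.162), 0.36 without Ccne1 replicate 2, 0.16 without Vgll3 replicate 1 and 0.33 without Vgll3 replicate 2. The endothelial marker Pecam1 was also highest in Vgll3 replicate 3, at 184 CPM, but was 22.4 CPM in Ccne1 replicate 2, the lowest of that group. The 7 endothelial markers summed to 33.1, 62.6 and 227 CPM in Vgll3 replicates 1 to 3. Their sum was 48.1 to 132 CPM in the Ccne1-labelled libraries. Their part in the level of Thbs2 was not tested.

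Per length, Thbs1 was 8.03, 6.44 and 6.06 times Thbs3 in Vgll3 replicates 1 to 3, and 16.1, 24.4, 20.6 and 24.6 times Thbs3 in Ccne1 replicates 1 to 4. Thbs1 was above Thbs2 in all 7 libraries too, by 1.76 to 9.79 times in the Vgll3-labelled and 15.4 to 49.3 times in the Ccne1-labelled libraries. Thbs1 was thus the main thrombospondin of the 3 in both models, and the summed level of the 3 was 221, 168 and 330 TPM in the Vgll3-labelled libraries, against 1215, 1541, 1483 and 1591 TPM in the Ccne1-labelled libraries.

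In the Vgll3-labelled libraries 3 of the 10 genes rose and 4 fell, where 25.1% of all tested genes rose and 26.8% fell. The 7 called genes compare with 51.9% of all tested genes called, a wide difference between the models in which a call is common. The groups did not overlap for 7 of the 10, against 55.7% of all tested genes, and 6 of the 10 were called with a change of at least 2-fold, against 16.7%. Sparc lay at that cut, with a log2 fold change of 1.00, and had 0.92 to 1.09 over 12 alternative settings. The median log2 fold change of the 10 was −0.17, and that of all tested genes was 0.006. The 10 were chosen with earlier results of these data known, so none of these comparisons is that of a blind list. The same holds for the lists below. All 7 calls were kept in each setting that left out 1 library. In all 7 called genes, Vgll3 replicate 3 was the Vgll3-labelled library nearest to the Ccne1-labelled level, as it was for 43.1% of all called genes.

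**Figure D2:**
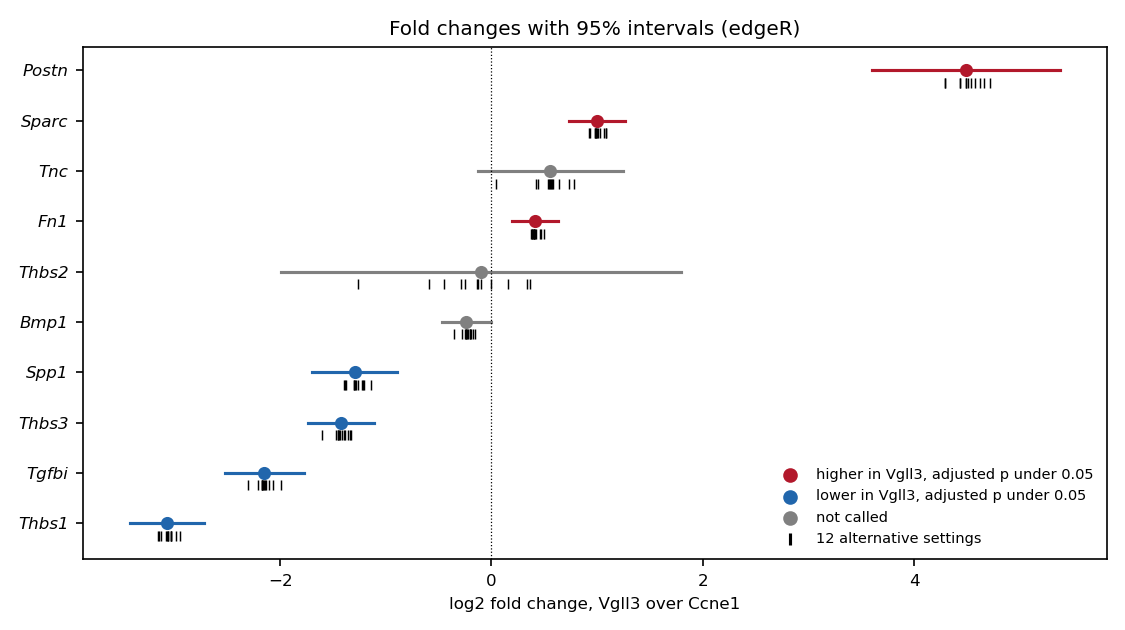
Log2 fold change of each gene, Vgll3-labelled over Ccne1-labelled (x axis), with its 95% interval from edgeR; red is called higher, blue called lower and grey not called, and black ticks are the values under 12 alternative settings. Postn stands at 4.49 and Thbs1 at −3.07, and only Thbs2 has ticks on both sides of 0.

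The mix of the 10 transcripts differed between the models more than their total. The 10 made up 2.53%, 2.47% and 2.18% of all counts in Vgll3 replicates 1 to 3. In Ccne1 replicates 1 to 4 they made up 1.70%, 1.90%, 1.78% and 1.84%, with no overlap. Per length they summed to 10786, 10381 and 9422 TPM in Vgll3 replicates 1 to 3. In Ccne1 replicates 1 to 4 the sum per length was 8556, 9559, 9485 and 9937 TPM, and these ranges overlapped. Postn made up 18.9%, 23.7% and 14.5% of that sum in Vgll3 replicates 1 to 3, against 0.545%, 1.08%, 1.17% and 0.758% in Ccne1 replicates 1 to 4. Thbs1 made up 1.29% to 2.02% in the Vgll3-labelled and 13.0% to 15.1% in the Ccne1-labelled libraries. Tgfbi made up 2.62% to 4.78% in the Vgll3-labelled and 15.9% to 17.2% in the Ccne1-labelled libraries.

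The order of the levels per length followed from this. In the Vgll3-labelled libraries Fn1 led at 3692 ± 138 TPM, followed by Sparc at 2005 ± 182, Postn at 1952 ± 550, Tnc at 1049 ± 510 and Spp1 at 729 ± 154 TPM. Sparc and Postn, Postn and Tnc, and Tnc and Spp1 overlapped between libraries. By CPM, which is not divided by length, Postn was 4961 ± 1476 and Sparc 2212 ± 238 there, so their order rests on the lengths used. In the Ccne1-labelled libraries Fn1 led at 2697 ± 183 TPM, followed by Spp1 at 1735 ± 286, Tgfbi at 1544 ± 128 and Thbs1 at 1343 ± 165 TPM, where each of the last 3 overlapped its neighbour. Postn was 8th of the 10 there, at 84.0 ± 29.2 TPM, and overlapped Thbs3. Among all genes Postn ranked 53rd to 95th in the Vgll3-labelled libraries and 1396th to 3285th in the Ccne1-labelled libraries.

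**Figure D3:**
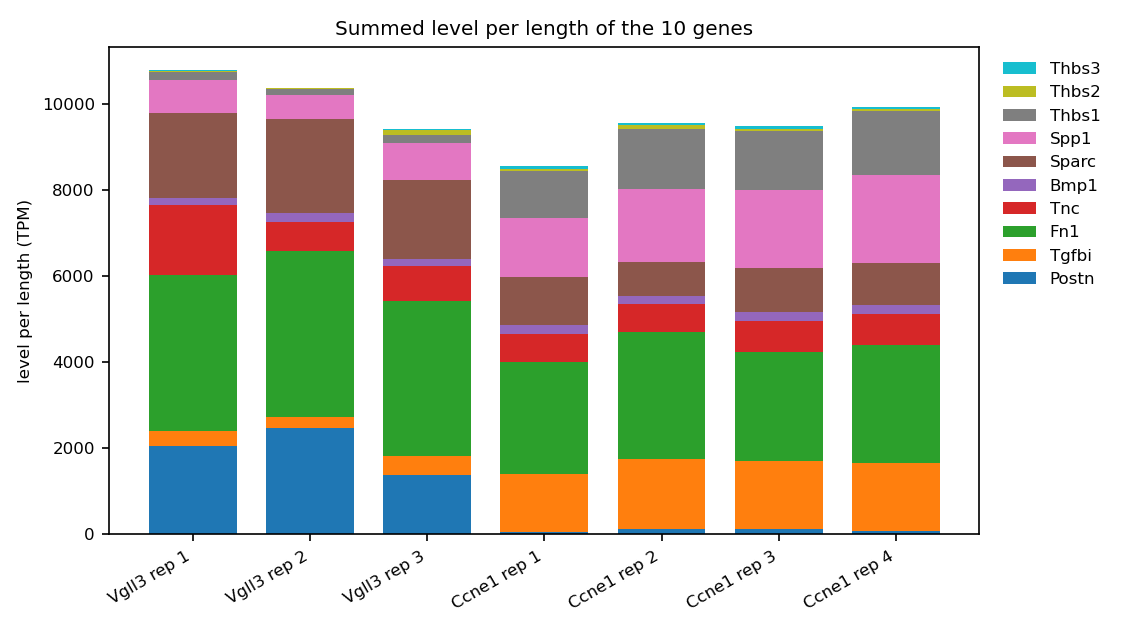
Stacked level per length (TPM, y axis from 0) of the 10 genes in each library, Vgll3-labelled libraries on the left. The totals lie between 8556 and 10786 TPM, while Postn (bottom) is at least 14.5% of the column in each Vgll3-labelled library and at most 1.17% in each Ccne1-labelled library.

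The genes next to the members were examined because the lines may differ in blocks of chromosome. Of all tested genes, 25.1% were called higher and 26.8% lower. Within 1 Mb of Postn, 11 other genes were tested, of which 4 were called higher and 5 lower, with a median log2 fold change of −0.30. Sohlh2, 791 kb away, was the only neighbour with a rise near that of Postn, at 1.28 CPM in the Vgll3-labelled and 0.0232 CPM in the Ccne1-labelled libraries, where it lay below the level that 3 counts stand for. Within 1 Mb of Thbs1, 11 of 19 tested genes were called lower and 4 higher, with a median of −0.43, and Disp2 was 0.322 ± 0.304 CPM in the Vgll3-labelled and 32.0 ± 1.93 CPM in the Ccne1-labelled libraries (edgeR adjusted p = 2.14e-05). Around Tgfbi, 3 of 11 were lower and 3 higher, with a median of −0.12, and the chemokine gene Cxcl14 was 0.232 ± 0.339 CPM in the Vgll3-labelled and 3.71 ± 2.48 CPM in the Ccne1-labelled libraries. The part of copy number in any of these values was not tested.

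**Figure D4:**
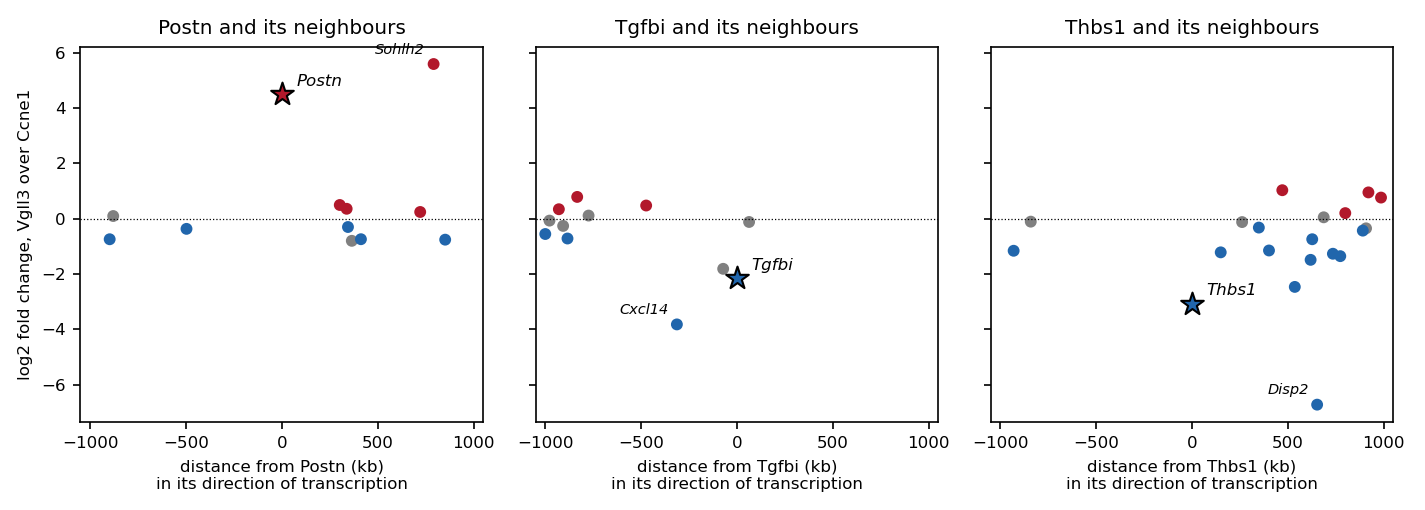
Log2 fold change (y axis) of tested genes within 1 Mb of Postn, Tgfbi and Thbs1 (stars) by distance in kb along the direction of transcription (x axis); red is called higher, blue called lower and grey not called. The neighbours of Postn other than Sohlh2 lie between −0.80 and 0.49, while most neighbours of Thbs1 are below 0.

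By root mean square difference of log2 CPM, centred on each gene's mean over the 7 libraries, the 5 tested genes of at least 10 CPM nearest to Postn were Naalad2, Nrep, Ifitm1, Spock2 and Cthrc1. Their distances were 0.345, 0.478, 0.495, 0.564 and 0.578 log2 units. Cthrc1, a secreted protein of the matrix that is known to limit collagen deposition, was 76.7 ± 18.3 CPM in the Vgll3-labelled and 3.42 ± 1.25 CPM in the Ccne1-labelled libraries (log2 fold change 4.50, edgeR adjusted p = 3.24e-05). Naalad2, a peptidase gene, was 110 ± 23.5 CPM in the Vgll3-labelled and 5.49 ± 0.832 CPM in the Ccne1-labelled libraries. Nearest to Thbs1 were Cdc42ep3, Cd14 and Slc22a4, at 0.153, 0.181 and 0.203 log2 units. Cd14, the co-receptor for lipopolysaccharide, was 6.39 ± 1.85 CPM in the Vgll3-labelled and 59.4 ± 7.89 CPM in the Ccne1-labelled libraries. With 2 groups set far apart, this likeness mostly reflects the difference between the models.

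Of 15 tested genes for receptors of these proteins, 11 fell and 3 rose in the Vgll3-labelled libraries, where 26.8% of all tested genes fell and 25.1% rose. Their median log2 fold change was −0.55, against 0.006 for all tested genes, and without the low-count filter 9 fell. Itgav, the αv chain through which periostin and osteopontin signal, was 367, 369 and 279 CPM in Vgll3 replicates 1 to 3, against 446, 489, 467 and 469 CPM in Ccne1 replicates 1 to 4 (log2 fold change −0.47, edgeR adjusted p = 0.00536). Its partner chains split in size. Itgb3 was 2.14, 3.70 and 10.5 CPM in Vgll3 replicates 1 to 3, against 95.8, 81.7, 78.4 and 72.1 CPM in Ccne1 replicates 1 to 4 (log2 fold change −3.94, edgeR adjusted p = 0.00149). Vgll3 replicate 3 was the highest of its group, and without it the log2 fold change was −4.86. Itgb5, the other main partner of αv for periostin, was 330 ± 60.6 CPM in the Vgll3-labelled and 483 ± 10.8 CPM in the Ccne1-labelled libraries (log2 fold change −0.55, edgeR adjusted p = 0.00386).

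The fibronectin receptor chain Itga5 was 358 ± 13.6 CPM in the Vgll3-labelled and 538 ± 22.6 CPM in the Ccne1-labelled libraries (log2 fold change −0.59), so it fell while its ligand Fn1 rose. Cd47, a receptor of thrombospondin 1, was 159 ± 5.68 CPM in the Vgll3-labelled and 220 ± 19.0 CPM in the Ccne1-labelled libraries (log2 fold change −0.47, edgeR adjusted p = 0.00150). Itga9, an integrin chain that binds tenascin-C and osteopontin, was 0.809 ± 0.195 CPM in the Vgll3-labelled and 4.84 ± 0.758 CPM in the Ccne1-labelled libraries (log2 fold change −2.58). The 3 that rose were Itga4, Lrp1 and Cd44. Itga4, a chain of a fibronectin receptor, was 10.6 ± 2.14 CPM in the Vgll3-labelled and 0.530 ± 0.357 CPM in the Ccne1-labelled libraries (log2 fold change 4.33, edgeR adjusted p = 0.000119). Lrp1, an endocytic receptor that takes up thrombospondins, was the most abundant of the list, at 4014 ± 582 CPM in the Vgll3-labelled and 1987 ± 106 CPM in the Ccne1-labelled libraries. Cd44, a receptor of hyaluronan and osteopontin, was 640 ± 83.3 CPM in the Vgll3-labelled and 421 ± 58.3 CPM in the Ccne1-labelled libraries.

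In the Vgll3-labelled libraries 6 of 20 other matricellular genes tested rose and 6 fell, shares near those of all tested genes (25.1% and 26.8%), and their median log2 fold change was 0.006. Ccn5, a CCN protein without the carboxy-terminal cystine knot, was 174, 241 and 97.6 CPM in Vgll3 replicates 1 to 3, against 4.00, 2.46, 2.17 and 0.981 CPM in Ccne1 replicates 1 to 4. Spock2, a proteoglycan with a SPARC-like domain, was 25.7 ± 6.51 CPM in the Vgll3-labelled and 1.23 ± 0.410 CPM in the Ccne1-labelled libraries (log2 fold change 4.40). Fbln2, the most abundant of the list by its mean over the 7 libraries, was 2011 ± 552 CPM in the Vgll3-labelled and 1037 ± 149 CPM in the Ccne1-labelled libraries. Of the relatives of tenascin-C, Tnn (tenascin-W) was 10.2, 10.3 and 10.9 CPM in Vgll3 replicates 1 to 3, against 89.9, 40.9, 114 and 44.7 CPM in Ccne1 replicates 1 to 4 (log2 fold change −2.79, edgeR adjusted p = 0.00186). Tnn was chosen after its values were seen. Smoc2, a SPARC relative, was 0.218 ± 0.134 CPM in the Vgll3-labelled and 2.25 ± 0.866 CPM in the Ccne1-labelled libraries. Tnxb (tenascin-X) ranged over 0.0756 to 6.11 CPM in the Vgll3-labelled and 7.63 to 63.9 CPM in the Ccne1-labelled libraries, and its call (log2 fold change −3.56, edgeR adjusted p = 0.0416) was lost when Ccne1 replicate 1, 2 or 3 was left out, and likewise Vgll3 replicate 2 or 3, with an edgeR adjusted p of 0.0692 to 0.110. Without Vgll3 replicate 1 its log2 fold change was −4.87.

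Around BMP1, the list held its relatives, enhancers and known substrates, and 9 of 19 tested genes rose and 7 fell (25.1% and 26.8% of all tested genes), with a median log2 fold change of 0.64. The procollagen Col1a2 led in mean level over the 7 libraries, at 17309 ± 2673 CPM in the Vgll3-labelled and 4197 ± 463 CPM in the Ccne1-labelled libraries. Tll1, a BMP1-like protease, was 3.71 ± 2.09 CPM in the Vgll3-labelled and 0.548 ± 0.229 CPM in the Ccne1-labelled libraries (log2 fold change 2.77, edgeR adjusted p = 0.00138), a low level beside Bmp1. Lama3, a laminin chain, was 10.5 ± 3.17 CPM in the Vgll3-labelled and 0.527 ± 0.322 CPM in the Ccne1-labelled libraries. The small proteoglycans Dcn and Bgn fell the most. Bgn (biglycan) was 477, 354 and 826 CPM in Vgll3 replicates 1 to 3, against 2246, 2522, 2397 and 2141 CPM in Ccne1 replicates 1 to 4 (log2 fold change −2.07, edgeR adjusted p = 0.000656). Dcn (decorin) was 70.2, 35.3 and 158 CPM in Vgll3 replicates 1 to 3, against 414, 698, 677 and 552 CPM in Ccne1 replicates 1 to 4 (log2 fold change −2.74, and −3.45 without Vgll3 replicate 3). Both were highest of their group in Vgll3 replicate 3.

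Of 14 tested genes known to induce Postn, 3 rose and 3 fell, where 25.1% of all tested genes rose and 26.8% fell, and the median log2 fold change was 0.17. The 3 that rose did so by small amounts, among them Tgfb1 (190, 228 and 136 CPM in Vgll3 replicates 1 to 3, against 135, 130, 134 and 121 CPM in Ccne1 replicates 1 to 4) and Tgfb3 (62.5 ± 10.8 CPM in the Vgll3-labelled and 44.1 ± 5.73 CPM in the Ccne1-labelled libraries), with log2 fold changes of 0.50 each. The call of Tgfb1 (edgeR adjusted p = 0.0220) ended without Ccne1 replicate 4, Vgll3 replicate 1 or Vgll3 replicate 2, and that of Tgfb3 (edgeR adjusted p = 0.0151) without Vgll3 replicate 2. Without Vgll3 replicate 2 none of the 14 rose, and without Vgll3 replicate 3, 6 rose. Bmp4 was 24.9 ± 4.16 CPM in the Vgll3-labelled and 69.0 ± 5.43 CPM in the Ccne1-labelled libraries (log2 fold change −1.47, edgeR adjusted p = 2.83e-05). Il13ra1, a receptor chain for interleukin-13, was 1.65 ± 1.82 CPM in the Vgll3-labelled and 11.5 ± 1.72 CPM in the Ccne1-labelled libraries (log2 fold change −2.82, and −4.22 without Vgll3 replicate 3). Tgfbr2, the most abundant of the list by its mean over the 7 libraries though not in the Vgll3-labelled ones, was 119, 121 and 223 CPM in Vgll3 replicates 1 to 3, against 214, 238, 223 and 234 CPM in Ccne1 replicates 1 to 4, and was not called with all libraries (edgeR adjusted p = 0.0655) but was when Vgll3 replicate 3 was left out, with −0.92 on the log2 scale (edgeR adjusted p = 1.56e-05) and with all libraries by DESeq2 (adjusted p = 0.00947) and limma-voom (adjusted p = 0.0391).

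Of 11 tested genes that respond to TGF-beta in many cells, 6 fell and 1 rose, where 26.8% of all tested genes fell and 25.1% rose, and the median log2 fold change was −0.37. Ccn2 was 9.66 ± 2.24 CPM in the Vgll3-labelled and 84.9 ± 26.7 CPM in the Ccne1-labelled libraries (log2 fold change −3.13, edgeR adjusted p = 0.000258). Tagln, a smooth muscle actin-binding protein, was 12.5 ± 4.97 CPM in the Vgll3-labelled and 27.8 ± 4.21 CPM in the Ccne1-labelled libraries (log2 fold change −1.15). Pmepa1, a feedback inhibitor of TGF-beta signalling, was 294 ± 71.1 CPM in the Vgll3-labelled and 543 ± 26.8 CPM in the Ccne1-labelled libraries (log2 fold change −0.88, edgeR adjusted p = 0.00107). Tgfbi therefore stood with the 6 that fell and Postn, also known as a TGF-beta responsive gene, did not. The 1 that rose was Acta2, smooth muscle actin, at 226 ± 59.9 CPM in the Vgll3-labelled and 74.7 ± 35.1 CPM in the Ccne1-labelled libraries (log2 fold change 1.60, edgeR adjusted p = 0.0164), a call that ended without Vgll3 replicate 2 or 3 (edgeR adjusted p = 0.0589 and 0.0527).

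**Figure D5:**
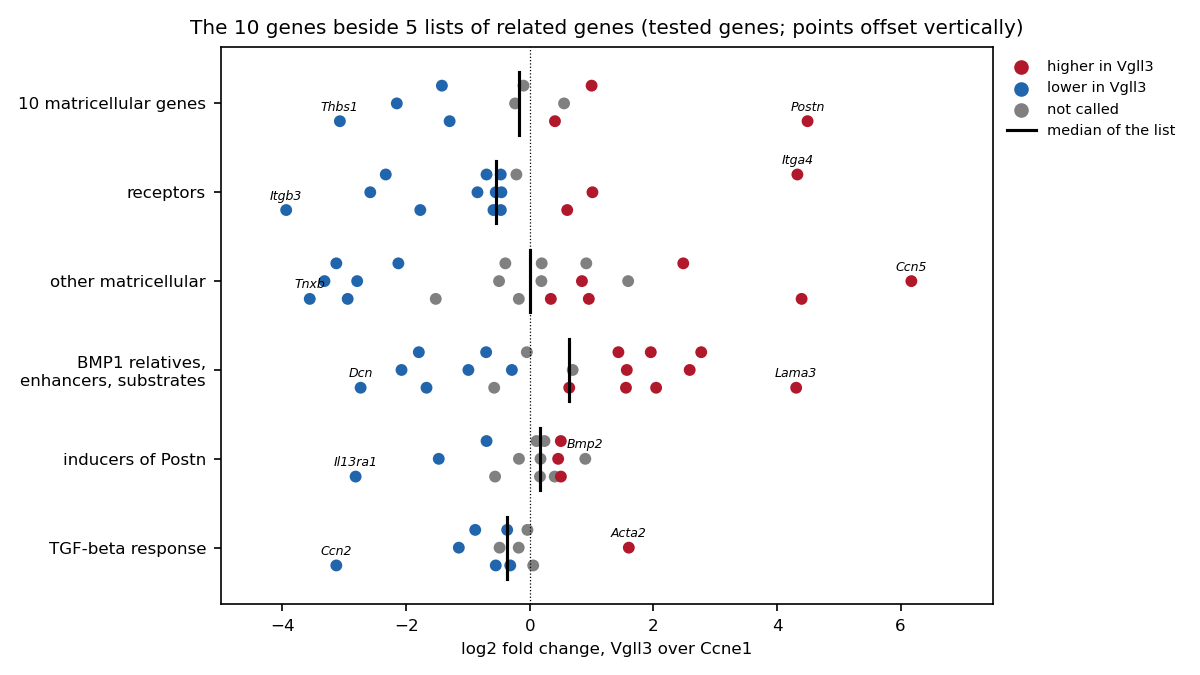
Log2 fold change, Vgll3-labelled over Ccne1-labelled (x axis), of the tested genes among the 10 and in 5 lists of related genes, with points offset vertically for legibility; red is called higher, blue called lower, grey not called, and the black bar is the list's median. The receptors and the TGF-beta response genes have medians of −0.55 and −0.37, and the genes around BMP1 a median of 0.64.

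Of 10 tested genes of tissue dissociation and stress, 3 rose and 2 fell, shares near those of all tested genes (25.1% and 26.8%). Jun, the most abundant in both models, was 5180 ± 920 CPM in the Vgll3-labelled and 3346 ± 398 CPM in the Ccne1-labelled libraries. Of 4 pericyte markers, 1 rose and 1 fell, and Cspg4, a chondroitin sulphate proteoglycan that sarcoma cells can also express, was 140 ± 10.2 CPM in the Vgll3-labelled and 514 ± 42.4 CPM in the Ccne1-labelled libraries. The lymphocyte list, led by Cd79a, summed to at most 4.05 CPM, in Vgll3 replicate 3. The erythroid list, led by Hbb-bs, summed to at most 1.18 CPM, in Vgll3 replicate 1.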

How the data were processed

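The deposited table holds the authors' estimated counts for Ensembl genes, with a column for each library and no scaling. Salmon and build mm10 were used, per the submitters' processing notes. Not given in the sources used here are the version, annotation and strand setting, so reads of a gene and of one overlapping it in antisense may be mixed. All values were whole (0 needed rounding). Symbols, 1-based positions and exon lengths come from GENCODE M21 (GRCm38, the same build) and matched 35493 of 35727 genes. Groups follow the sample titles. The test was edgeR 4.0.16 in R 4.3.3 (filterByExpr, TMM scaling, robust quasi-likelihood F test, Benjamini-Hochberg over 13740 genes). It was also run on simulated counts with few changed genes and the same spread in every library. That setting is unlike these data, where 51.9% of tested genes were called. CPM used TMM library sizes, where 3 counts stand for 0.0577 to 0.136 CPM, a limit that covers counting error only. SE values were derived as the size of the log2 fold change over √F. Nearest genes used log2(CPM + 0.5). Within-group pairs of libraries differed by more than sampling noise, with a ratio of chi-square to its degrees of freedom of 11.7 to 88.9.

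The members and lists were chosen with earlier results of these data known. Beyond the 10 genes, the text names by rule the 5 genes nearest to Postn and 3 nearest to Thbs1, of each pathway list at most 2 called genes in each direction, those of largest change, and the most abundant one, and the most abundant gene of each marker list. Other genes named (Itgav, Itgb5, Itga5, Cd44, Cd47, Tnn, Dmp1, Col1a1, Pdgfra, Pdgfrb and the neighbours) were chosen after their values were seen. Alternatives were DESeq2 1.42.0, upper-quartile scaling, no low-count filter, limma-voom (limma 3.58.1), a replicate block and leaving out each library.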

Additional observations from a re-analysis of the deposited data

How the results depend on the processing

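Each of the 10 fold changes was recomputed under 12 alternatives. Postn, Tgfbi, Sparc, Spp1, Thbs1 and Thbs3 kept direction and call in all 12; over these, the log2 fold change of Postn lay between 4.29 and 4.72 and that of Thbs1 between −3.16 and −2.95. Leaving out 1 library gave 0.37 to 0.47 for Fn1, 0.041 to 0.78 for Tnc, −0.35 to −0.17 for Bmp1 and −1.27 to 0.36 for Thbs2, whose reversed values were 0.36 without Ccne1 replicate 2, 0.16 without Vgll3 replicate 1 and 0.33 without Vgll3 replicate 2. Replicate numbers are shared by the labels but did not pair the libraries (correlation of same-numbered deviations −0.141, −0.159 and −0.0981). With the replicate number as a block, Fn1 had a log2 fold change of 0.41 and was not called (edgeR adjusted p = 0.0624), 1 inducer and 0 TGF-beta response genes rose, 8 receptors and 4 TGF-beta response genes fell, and 2287 of all genes were called higher, against 3454; of the 10 genes, no other call changed. Leaving out 1 library gave 0 to 6 raised inducers and 0 to 1 raised TGF-beta response genes. With upper-quartile scaling 6 inducers rose, and without a low-count filter 0 TGF-beta response genes rose. The cause was not tested. Tnc and Thbs2 had at least 736 counts in every library and differed widely among the 3 Vgll3-labelled libraries. The source of that spread was not tested.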
